A study of Lotus japonicus with 6 samples.

Results

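The bHLH genes of a Lotus japonicus array were measured in leaves of wild type and of lines labelled as overexpressing the MYB factor LjMyb14. The array carries genes of transcription factor families and of enzymes, so shares of all genes below cover both. Members were all genes whose array name contains bHLH, with a name ending in _est taken as the same gene, and 122 of the 2881 genes on the array met this rule. They were read by 273 probes, each spotted 2 times on an array: 89 genes had 2 probes, 31 had 3 and 2 had 1. All plants were accession MG20 grown in vitro on MS medium. The wild type group had 3 arrays, and the other group had 1 array from each of 3 independent transgenic lines, made with a Lotus ubiquitin promoter intended to drive LjMyb14 throughout the plant. The labels give no plant age and no number of plants behind an array.

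Basic helix-loop-helix proteins bind DNA through a basic region and pair with one another through the helix-loop-helix. In Arabidopsis and other plants, some members join MYB and WD40 proteins in the complex that turns on anthocyanin and proanthocyanidin genes. Others act in jasmonate responses, light and gibberellin signalling, iron uptake and stomatal development. The array names carry a family code and a number only, so no such role could be given to a single Lotus gene here, and the reference table matched 0 of the 122 names.

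Values below are log2 signal minus the array's own 75th percentile, so 0 is the level of that percentile. Wild type arrays 1 and 3 were closer to each other than repeated spots of a probe would lead to, with a variance ratio to spot noise of 0.444, where other pairs from the same group had 2.76 to 11.3. They were averaged and counted as 1 sample, which sets 2 wild type samples against 3 lines. Nothing in the labels says that wild type arrays came from separate plants, so p-values measure the spread between these samples only. The tested LjMYB14 probe did not show the labelled overexpression (log2 fold change 0.11, 95% confidence interval -1.15 to 1.36, limma adjusted p = 0.939), while LjMYB76a rose by 7.54. The 3 transgenic samples are called the lines below, by their label only. No name on the array held the codes searched for photosynthesis or nodule genes, so the leaf label was not checked. The 53 MADS-box genes, the marker list for flower tissue, had a summed linear level of 20.9 to 23.5 times the 75th percentile in wild type and 17.8 to 20.2 in the lines. Their number detected was 37 to 48 in wild type and 47 to 51 in the lines. The 37 was on wild type array 3, which had the lowest share of spots well above background (71.7%). LjMADS19 rose, and LjMADS43 fell from a mean of 2.31 to 0.14, which lowers the summed level. The median log2 fold change was 0.24, against -0.09 over all genes. All lines lay above both wild type samples for 28.3% of MADS genes (16.6% of all genes) and below both for 5.66% (22.1%). The part of flower tissue in the results below was not tested.

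Most of the family was measurable in these leaves. Between 214 and 231 of the 273 probes were well above background on each array. In all, 98 genes had a probe well above background on all 6 arrays. At least 3 arrays were required for a test, which 110 genes passed with 228 probes. Of the 12 genes that did not pass, 5 were not well above background on any array and 7 were on 1 or 2 arrays. At the brightest tested probe of each gene, which represents the gene in counts below, 35 of 110 wild type means lay above the 75th percentile. These means ranged from -7.13 to 3.98 with a median of -1.14, and part of this range belongs to the probes and not to the transcripts.

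Few bHLH genes differed between the lines and wild type. Of 228 bHLH probes, 2 rose and 1 fell at a Benjamini-Hochberg adjusted p under 0.05 in limma, which is 3 probes of 3 genes, LjbHLH81, LjbHLH52 and LjbHLH28. Over all genes, 4.3% had a called probe. Over all 5039 probes tested, 3.43% were called, with 2.3% higher and 1.13% lower. At the representative probe 1 of 110 genes was called, LjbHLH52 (0.909%), against 3.3% of all 2487 genes. LjbHLH52 passed the detection filter through the lines only and was not well above background on any wild type array. Its call therefore rests on wild type values at background. Without the correction for multiple tests, 8 bHLH genes were higher (7.27%) and 11 lower (10.0%) at an unadjusted p under 0.05, where 9.61% and 9.97% of all genes were.

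LjbHLH81 had the largest positive log2 fold change of the family with the processed signal, from probes near background in wild type. Its dimmer probe read -7.13, -6.12 and -7.25 on wild type arrays 1, 2 and 3 and -3.39, -3.61 and -3.96 in lines 1, 2 and 3. Every line lay above every wild type array. The group means were -6.65 ± 0.75 (SD, n = 2) and -3.65 ± 0.28 (SD, n = 3), a log2 fold change of 3.00 ± 0.38 (SE; limma adjusted p = 0.0259). In processed intensity, this is 2.75 to 5.22 units in wild type and 26.0 to 38.7 in the lines. The brighter probe read -5.65, -5.09 and -6.44 in wild type and -3.30, -3.93 and -3.75 in the lines. Here too no line overlapped wild type, and the log2 fold change was 1.91 with an adjusted p of 0.0587. Both probes were well above background in all lines, but the dimmer on 1 and the brighter on 2 of the 3 wild type arrays. The requirement of 3 arrays was therefore met through the lines, and the wild type level of the called probe is not well measured.

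LjbHLH52 was well above background in all lines and on no wild type array, which no other bHLH probe was. Its brighter probe read -7.10, -6.94 and -7.55 in wild type and -4.98, -5.32 and -5.61 in the lines. The groups did not overlap, and line 1 was the highest. The probe met the requirement of 3 arrays only through the lines, so its wild type level is not well measured. Wild type values below the dimmest signal well above background on their array were raised to that signal. Array 2 (-6.94) lay above it and stayed as measured, so the result is no strict bound. On this footing the gene was 3.04-fold higher. The fit over all probes, which uses the measured wild type mean of -7.13 and line mean of -5.30, gave a limma adjusted p of 0.0342. The 3.04-fold difference is one between means and carries no error of its own. The signals were small, 2.13 to 3.27 intensity units in wild type and 8.28 to 12.8 in the lines. Its other probe was not well above background on any array, at -8.26 to -7.80.

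Both rises rest on spots near background. With a normexp background correction, whose offset of 50 exceeds these intensities, the log2 fold change was 0.48 for LjbHLH81 (adjusted p = 0.0787) and 0.12 for LjbHLH52 (adjusted p = 0.565), both below the 0.66 of LjbHLH9, described below.

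LjbHLH28 was the called gene with a bright signal, and it was lower in the lines at both of its probes. The dimmer one read 1.42, 1.03 and 1.49 in wild type and -0.23, -0.01 and -0.08 in lines 1, 2 and 3. The lines fell within 0.22 of each other and lay below all wild type arrays. The means were 1.24 ± 0.30 (SD, n = 2) and -0.10 ± 0.11 (SD, n = 3), so the probe fell by 1.35 on the log2 scale, or 2.54-fold (limma adjusted p = 0.0455). The brighter probe read 1.70, 1.34 and 1.70 against 0.12, 0.45 and 0.18. Its log2 fold change was -1.27, just outside the threshold at an adjusted p of 0.0514. In intensity this probe gave 925 to 1265 units in wild type and 440 to 534 in the lines.

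**Figure D1:**
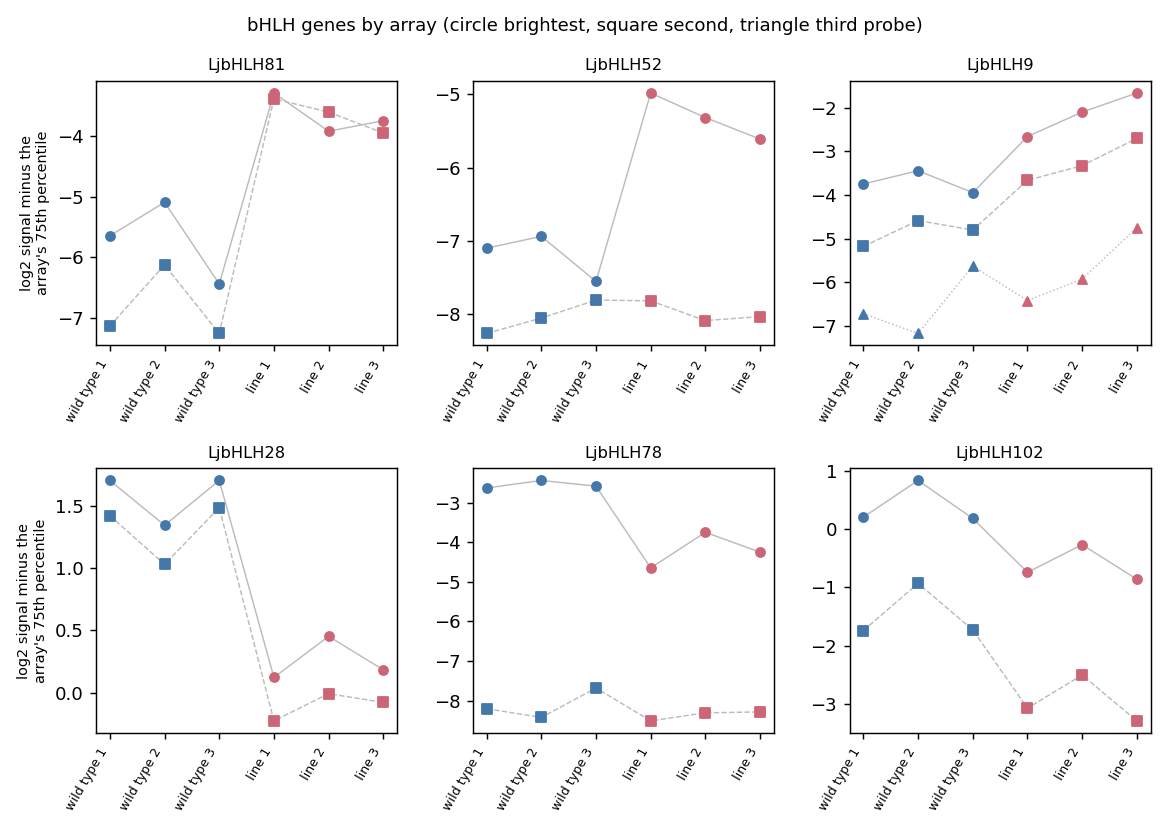
Log2 signal minus the 75th percentile of its array (vertical axes, each panel on its own scale) on the 3 wild type arrays (blue) and the 3 lines (red), with thin lines joining the values of 1 probe. LjbHLH81, LjbHLH52 and LjbHLH9 are in the upper row and LjbHLH28, LjbHLH78 and LjbHLH102 in the lower. The groups do not overlap at the brightest probe of any of the 6 genes, while the second probe of LjbHLH52 and of LjbHLH78 stays near -8 on all arrays.

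None of these calls held without line 1, where the adjusted p was 0.125 for LjbHLH81, 0.137 for LjbHLH52 and 0.198 for LjbHLH28. Without wild type array 2, 1 wild type sample is left and the lines alone give the spread. The adjusted p was then 0.0674, 0.232 and 0.236, and 8 probes were called in all. The log2 fold changes of these 3 probes kept their direction in every setting that left out arrays, from 2.47 to 3.53, from 1.63 to 2.02 and from -1.56 to -1.13. Without line 3, LjbHLH52 and LjbHLH28 also lost their calls, while LjbHLH81 kept its call and LjbHLH50 gained one. That made 2 bHLH probes, beside 1.53% of all probes. Without line 2, 19 bHLH probes were called, beside 8.71% of all probes. Line 1 shared its slide row with all wild type arrays, and the difference of this single line from the wild type mean was 3.26, 2.15 and -1.47, a value with no replicate line.

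Genes next in size among the rises were LjbHLH9, LjbHLH25 and LjbHLH50, none of them called. LjbHLH9 read -3.75, -3.45 and -3.95 in wild type and -2.66, -2.11 and -1.67 in the lines at its brightest probe. Its lines all lay above wild type, with line 3 the highest, and the log2 fold change was 1.50 (95% confidence interval 0.64 to 2.37, adjusted p = 0.0909). The second probe gave 1.56 (adjusted p = 0.0825) and the dim _est probe 0.97 with overlapping groups. LjbHLH50 read -0.10, -0.30 and -0.02 against 1.35, 0.56 and 0.98, a log2 fold change of 1.14 (adjusted p = 0.111). Its 3 probes disagreed in size, at 1.14, 0.43 and 1.34, and at the _est probe line 2 (-2.07) was below all wild type arrays. LjbHLH25 read -6.31, -6.75 and -6.83 against -5.13, -6.05 and -4.89, with a log2 fold change of 1.30 and 1 wild type array well above background.

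The other genes whose lines all lay above all wild type arrays at the representative probe had smaller positive log2 fold changes. LjbHLH18, LjbHLH110, LjbHLH4 (read by its _est probe), LjbHLH44 and LjbHLH68 gave log2 fold changes of 0.92, 0.78, 0.75, 0.73 and 0.27. None of them was called, with limma adjusted p from 0.0887 to 0.544. The 3 tested probes of LjbHLH68 differed in sign, from -0.12 to 0.27, so no rise is read from it. Of these 10 genes with higher lines, only LjbHLH9, LjbHLH50, LjbHLH44 and LjbHLH68 were well above background on all 6 arrays.

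Of genes whose lines all lay below wild type, LjbHLH78 read -2.63, -2.44 and -2.59 in wild type and -4.65, -3.75 and -4.25 in lines 1, 2 and 3. Wild type arrays lay within 0.19 of each other and all lines lay below them, but the probe did not pass the threshold (log2 fold change -1.69 ± 0.31, SE; adjusted p = 0.0543). In 6 of 17 alternative settings it passed, among them normexp and detection on all 6 arrays, and in 11 it did not. Its other probe was at background on all arrays, so a single probe carries this difference. LjbHLH102 read 0.21, 0.83 and 0.18 against -0.74, -0.27 and -0.86, a log2 fold change of -1.14 (adjusted p = 0.128), and its dimmer probe gave -1.62 (adjusted p = 0.0863). At both probes wild type array 2 and line 2 were the highest of their groups.

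LjbHLH36 was read by 3 probes that gave log2 fold changes of -1.30, -1.40 and -1.23, with adjusted p from 0.136 to 0.214. At the brightest, lines 1, 2 and 3 read -3.62, -2.87 and -3.97 against -2.32 to -1.95 in wild type, so line 2 was nearest to wild type. LjbHLH98 also had line 2 nearest to wild type (-2.76, -1.75 and -2.62 against -0.75, -1.50 and -0.73), and its tested probes gave -1.26 and -1.24. LjbHLH122 (-4.32, -3.38 and -3.93 against -2.89 to -2.77) gave -1.06 and -1.23. LjbHLH112, a bright member, read 2.39, 1.78 and 2.39 against 1.46, 1.29 and 1.08 and gave -0.81 and -0.84.

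LjbHLH117 and LjbHLH54 had log2 fold changes of -0.78 and -0.82, with adjusted p of 0.251 and 0.404. For LjbHLH54, line 2 (-6.04) was well below lines 1 and 3 (-4.58 and -4.88), which were nearer to the wild type mean of -4.34. LjbHLH73 had the most negative log2 fold change, -2.05 (95% confidence interval -3.65 to -0.44, adjusted p = 0.170). It was dim, with -5.97, -4.70 and -5.86 in wild type and -7.75, -6.28 and -8.04 in the lines, and detected above background in 1 line and on 2 wild type arrays.

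**Figure D2:**
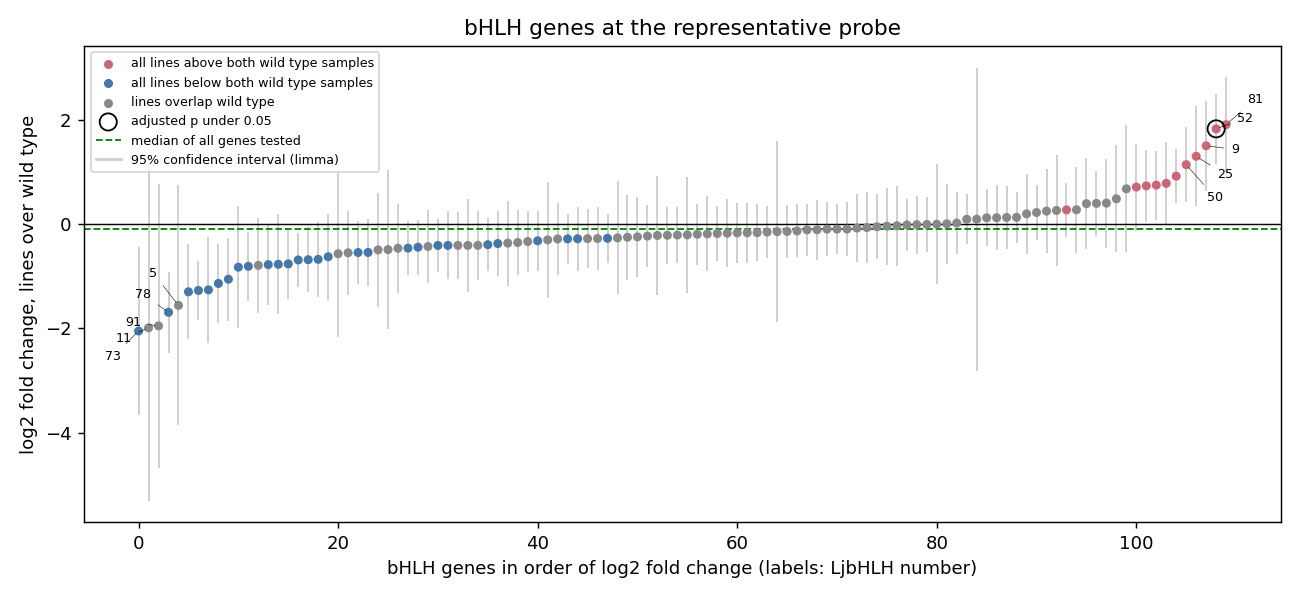
Log2 fold change of the lines over wild type (vertical axis) at the representative probe of each of 110 bHLH genes, in rising order along the horizontal axis, with 95% confidence intervals from limma as grey bars. Colours mark genes whose 3 lines all lie above (11) or below (28) both wild type samples, the circle marks the called gene LjbHLH52, and the dashed line is the median of all genes, -0.09.

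As a family the bHLH genes leaned lower. The median log2 fold change was -0.21 over 110 genes, with quartiles of -0.46 and 0.02, against a median of -0.09 over all 2487 genes with quartiles of -0.40 and 0.25. Fold changes were negative for 81 bHLH genes and positive for 29, which is 26.4% positive against 42.0% of all genes. The median difference from the wild type mean was -0.19, -0.10 and -0.23 in lines 1, 2 and 3, where over all genes it was -0.07, -0.12 and -0.00. The family median thus lay below that of all genes in lines 1 and 3 and not in line 2. All 3 lines were below the wild type mean for 47 bHLH genes (42.7%, against 29.1% of all genes) and above it for 14 (12.7%, against 21.8%).

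Counts of separated genes were below the array's share on the higher side and near it on the lower side. On the lower side this held in some alternative settings and not in others. All 3 lines lay above both wild type samples for 11 bHLH genes (10.0%, against 16.6% of all genes) and below both for 28 (25.5%, against 22.1%). With no scaling 19 lay below, where 17.3% of all genes did, and 31 did so when array 2 alone stood for wild type, where 27.9% of all genes did. Other settings put the family further above the array's share. Of 110 bHLH genes, 57 lay below without wild type array 2, where 34.2% of all genes did. Without line 2 there were 47 (32.8% of all genes), and with spike-in scaling 37 (21.3%). Set against all 3 wild type arrays singly, 10 genes were higher (9.09%, against 15.6% of all genes) and 26 lower (23.6%, against 21.1%). Of the 26, 25 were well above background on all 6 arrays, the exception being LjbHLH73. These are descriptions of genes measured on the same arrays, with no test of the family. The family median was -0.43 with scaling on spike-in probes, which moved the median of all genes to -0.31, and -0.12 with no scaling, where all genes had -0.00. It came nearest to the array without wild type arrays 1 and 3 (-0.09 against -0.04 over all genes) and without line 3 (-0.18 against -0.12).

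Probes of a gene mostly gave the same direction. Of 90 bHLH genes with at least 2 tested probes, 76 had the same sign of fold change at all of them (84.4%, against 82.8% of all such genes), 62 lower and 14 higher. The median spread between probes of a gene was 0.12 on the log2 scale, against 0.15 over all genes. In 1 gene, LjbHLH81, all lines lay above all wild type arrays at every tested probe, where 11.3% of all genes with at least 2 tested probes did so. In 15 genes they lay below at every probe, where 15.8% of all such genes did.

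These 15 genes were LjbHLH1, LjbHLH6, LjbHLH10, LjbHLH28, LjbHLH36, LjbHLH47, LjbHLH71, LjbHLH93, LjbHLH95, LjbHLH98, LjbHLH102, LjbHLH112, LjbHLH114, LjbHLH117 and LjbHLH122. Several differed from wild type by little. LjbHLH47 gave log2 fold changes of -0.27, -0.15 and -0.18 at its 3 probes, and LjbHLH114 gave -0.44, -0.38 and -0.51. LjbHLH1 gave -0.39 and -0.45, LjbHLH95 gave -0.46 and -0.59, and LjbHLH93 gave -0.54 and -0.76. LjbHLH6 and LjbHLH10 were a little further off, at -0.76 and -0.70 and at -0.69 and -0.66. LjbHLH71 gave -0.28, -0.34 and -0.82. None of these 8 genes was called.

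**Figure D3:**
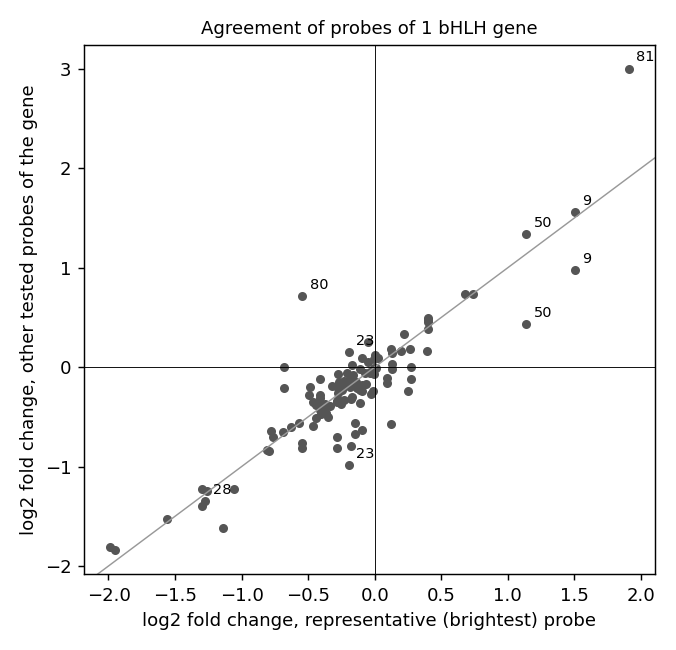
Log2 fold change of the lines over wild type at the representative probe (horizontal axis) and at each other tested probe of the same bHLH gene (vertical axis), with equality as the grey line and numbers naming LjbHLH genes. Most genes have the same sign at their probes (76 of 90), and the widest spread is that of LjbHLH80.

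Probes disagreed most for LjbHLH80, LjbHLH23, LjbHLH81 and LjbHLH50, with spreads of 1.26, 1.14, 1.09 and 0.91. LjbHLH80 gave -0.54 at its brighter probe and 0.71 at its dimmer one, which was well above background on 1 wild type array. LjbHLH23 gave -0.19, -0.99 and 0.15. No direction is given for LjbHLH80, LjbHLH23 and the LjbHLH68 described above, whose probes differ in sign.

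The range over wild type arrays was larger than the change between groups for 50 bHLH genes (45.5%, against 48.1% of all genes). It was widest for LjbHLH11, LjbHLH5 and LjbHLH91. LjbHLH11 read 0.97, -2.51 and 0.88 on wild type arrays 1, 2 and 3 and -2.43, -4.60 and -1.32 in the lines. Wild type array 2 was thus 10.8-fold below the mean of arrays 1 and 3, and its dimmer probe gave 9.48-fold. LjbHLH5 read 1.33, -1.05 and 1.40 against -0.65, -2.69 and -0.85, and here array 2 was 5.31-fold lower. LjbHLH91 read 0.53, -1.62 and 0.55 against -1.57, -4.38 and -1.52, with array 2 4.46-fold lower.

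LjbHLH108 had a like order at its brighter probe (-0.51, -2.11 and -1.15 against -1.75, -3.06 and -1.30), with array 2 2.42-fold lower, but at its dimmer probe line 2 did not stand apart.

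For LjbHLH5, LjbHLH11 and LjbHLH91, array 2 lay among the lines and line 2 was the lowest of the 6 arrays. Set against wild type array 2 alone, line 1 differed by 0.08, 0.39 and 0.05 for LjbHLH11, LjbHLH5 and LjbHLH91, and line 2 by -2.09, -1.65 and -2.77. Line 3 differed by 1.19, 0.20 and 0.10 in the same order. The log2 fold changes over the groups were -1.99, -1.56 and -1.95, with 95% confidence intervals of -5.30 to 1.32, -3.86 to 0.74 and -4.68 to 0.78. None passed the threshold (limma adjusted p = 0.485, 0.425 and 0.400). All were well above background on all 6 arrays. The wild type range of LjbHLH11, 3.48, ranked 1 of 2487 genes, that of LjbHLH5 (2.45) ranked 11 and that of LjbHLH91 (2.17) ranked 16. These genes were called when all 6 arrays were counted singly with the replicate number as a block, a fit that counts arrays 1 and 3 as separate samples.

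**Figure D4:**
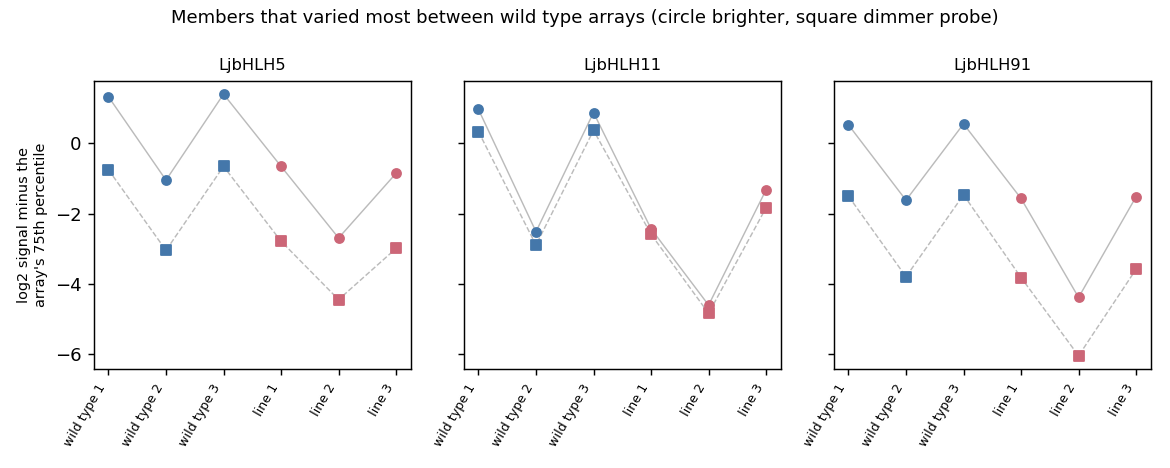
Log2 signal minus the 75th percentile of its array (vertical axis) on each of the 6 arrays for the probes of LjbHLH5, LjbHLH11 and LjbHLH91. Wild type arrays 1 and 3 lie together at the top, and line 2 is lowest. Wild type array 2 lies near lines 1 and 3, except that line 3 is above it for LjbHLH11.

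Over the whole family the range over wild type arrays exceeded 1 log2 unit for 10 genes (9.09%, against 9.17% of all genes), and for 7 (6.54%) without LjbHLH5, LjbHLH11 and LjbHLH91. The range over lines did so for 25 (22.7%, against 28.0%). The widest range over the lines was that of LjbHLH103, 4.06, with -6.88, -8.29 and -4.23 in lines 1, 2 and 3 and -5.94, -6.94 and -6.44 in wild type. It was well above background on 2 line arrays, and its log2 fold change was 0.09 (adjusted p = 0.978). LjbHLH45 ranged by 2.21 over the lines (-8.11, -5.90 and -6.32) and was well above background on 1 of them. LjbHLH79 ranged by 1.62 over wild type arrays (-5.95, -6.37 and -7.57), again near background.

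**Figure D5:**
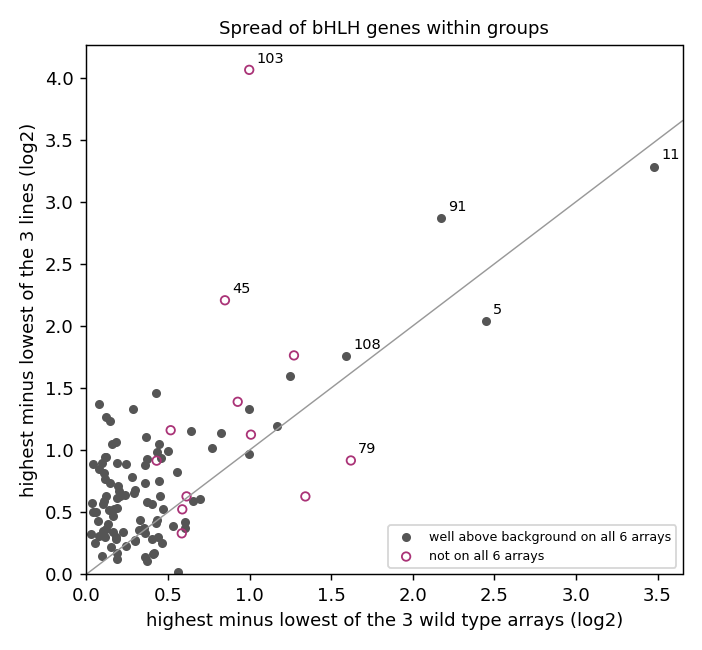
Range of the log2 signal over the 3 wild type arrays against the range over the 3 lines for each tested bHLH gene at its representative probe, in log2 units, with open circles for genes not well above background on all 6 arrays. LjbHLH11, LjbHLH5 and LjbHLH91 have wide ranges in both groups, and LjbHLH103 has the widest over the lines.

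Other genes of the pathways bHLH proteins work in were counted from the array's codes. Of 197 MYB genes, the family that holds the partners of flavonoid bHLH proteins, 5 rose and 2 fell, with a median log2 fold change of -0.10. The called share was 3.55%, near the 3.3% of all genes, of which 2.21% rose and 1.09% fell. Besides LjMYB76a, LjMYB27 rose by 3.27 and LjMYB65, read by its _est probe, by 2.82. Of 35 genes coded for late flavonoid enzymes or flavonoid hydroxylases, 1 rose and 1 fell, a called share of 5.71%. LDO02, a leucoanthocyanidin dioxygenase code, rose by 1.63. FHYD09, a hydroxylase code not well above background in any line, was 3.12-fold lower by measured signal. At an unadjusted limma p under 0.05, 1 of the 35 genes was higher and 10 were lower (28.6%, against 9.97% of all genes). Their median was -0.16. Of 35 GRAS genes, the family of the DELLA repressors, none was called in limma, beside 3.3% of all genes. At an unadjusted p under 0.05, 2 GRAS genes were lower (5.71%, against 9.97% of all genes), and the family median was 0.03. No name on the array held the codes WD40, TTG, JAZ or TIFY, so the WD40 and JAZ partners were not analysed here.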

How the data were processed

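Leaf RNA was hybridised to 6 single-colour Agilent arrays on 1 slide, scanned at 1 time. Per the file headers, the authors' scanner files come from Agilent Feature Extraction 10.7.3.1 and hold background-subtracted processed intensity for each spot. The deposited value table equals that intensity, linear and unscaled, in 91068 of 91068 cells (relative tolerance 1e-04). Its array medians were 5.54 to 6.04 after taking log2.

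From the processed intensity, log2 values were taken and the 75th percentile of each array (14642 spots that are not controls) was subtracted. Flagged spots (32 to 78 an array) were left out and spots of a probe averaged; 0 spots were saturated. Testing required a probe to be well above background, in a share of 0.5 or more of its spots, on 3 or more of 6 arrays. Wild type arrays 1 and 3 were averaged as 1 sample. limma 3.58.1 in R 4.3.3 fitted 5039 probes together, with Benjamini-Hochberg adjustment and a threshold of 0.05; a gene is represented by its tested probe with the highest mean. The 75th percentile was 364 to 404 units and 71.7% to 78.0% of spots were well above background; the number of arrays limits the precision. The fit was tested on simulated data.

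Named genes were those with a called probe, the 10 largest changes each way with lines beyond wild type, those separated at all probes or detected in 1 group only, and the 4 widest by range or by disagreement between probes. The members and lists were chosen with earlier results of these data known. Alternatives were other replicate handling, background correction, scaling, filters, slide row and prior. The normexp alternative used the median signal of the spot, since the mean signal was not in the columns used here. Names carry no sequence, and none is printed.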

Additional observations from a re-analysis of the deposited data

Results flagged for a closer look

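Of the 45 bHLH probes too dim to be tested, 10 were well above background on some line array and on no wild type array, while 6 showed the reverse. These are signals outside the tested set, and the difference was not tested. The same counts over all untested probes of the array were not taken, so nothing particular to bHLH genes is read from them. Wild type array 3 also had the fewest spots well above background (71.7%, against 74.8% to 78.0% in the lines). Both probes of LjbHLH63 were detected on 2 line arrays. Its brighter probe read -6.43, -6.44 and -7.13 in wild type and -5.87, -6.98 and -5.94 in the lines, so line 2 lay within the wild type values. LjbHLH77 had a probe detected on 2 line arrays, with -7.62, -7.55 and -7.78 against -4.62, -8.45 and -6.33. Line 1 was the highest and line 2 the lowest of all 6. LjbHLH25, LjbHLH65, LjbHLH69, LjbHLH70, LjbHLH72, LjbHLH79 and LjbHLH105 each had a probe detected on 1 line array. That of LjbHLH69 read -7.93, -7.50 and -7.67 against -6.10, -6.59 and -6.73, and that of LjbHLH79 read -7.04, -7.93 and -7.65 against -6.15, -6.25 and -6.45. In both the lines lay above wild type.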

How the results depend on the processing

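Over 38 named bHLH probes and 17 alternatives, 564 of 635 values kept direction and side of the threshold, 22 lost the call, 39 gained it and 10 reversed. The cause was not tested. Reversals were those of LjbHLH103 (-0.030 with all arrays singly, with or without the replicate block, -0.13 with spike-in scaling, -0.32 with slide row as a block, and -1.02 to 1.01 without single arrays), LjbHLH45 (0.19 without wild type array 2 and 0.52 without line 1, from -0.58 to 0.52 without single arrays and from -1.48 over all settings) and LjbHLH4 (-0.037 with normexp).

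Called probes numbered 173 in all, 3 of them bHLH, and 1 bHLH gene was called. With all 6 arrays counted singly these counts were 639, 23 and 12, and with the replicate block 373, 18 and 11. Deviations from the group means correlated by 0.01, 0.17 and 0.07 between arrays of the same replicate number, and by -0.21 to 0.25 between the others. With wild type arrays 1 and 3 so close, this cannot settle whether replicate numbers pair the arrays. Leaving out 1 array, or wild type arrays 1 and 3, gave 4 (both) or 8 to 439 (single) probes, 0 to 19 bHLH probes and 0 to 11 bHLH genes. At 0 bHLH probes in limma, unadjusted p under 0.05 was reached by 25 without wild type array 2, 14 without arrays 1 and 3 and 18 without line 1. Spike-in scaling gave 22, 0 (16 unadjusted) and 0, and slide row as a block 2, 0 (22 unadjusted) and 0. No filter gave 110 probes and the trend and robust prior 279. Quantile normalization called 5 bHLH probes and 3 genes. Normexp, detection on all arrays and the trend prior called 2 genes each, which were LjbHLH28 and LjbHLH78.

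The family median ranged from -0.31 to -0.18 without single arrays, was -0.093 without wild type arrays 1 and 3, and was -0.12 unscaled and -0.43 with spike-in scaling. Of 110 bHLH genes, those with all lines above wild type numbered 10 to 22 without arrays (16.6% to 26.3% of all genes). Those below numbered 27 to 57 (22% to 34.2% of all genes), with the 57 and the 34.2% both without wild type array 2. Spike-in scaling put 37 below, where 21.3% of all genes lay below. Those above numbered 4 with spike-in scaling (4.87% of all genes) and 4 with detection on all arrays (16.6%), and those below 19 with no scaling (17.3%). Signal over background limits LjbHLH81 and LjbHLH52.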
